A study of Mus musculus with 9 samples.

Results

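The genes described here are 33 mouse genes of mitochondrial fatty acid oxidation and the tricarboxylic acid (TCA) cycle, measured by RNA-seq in epigonadal white adipose tissue (eWAT), the visceral fat pad next to the ovary and uterus. They were chosen by symbol, through the Ensembl gene IDs of the deposited table, and are 33 of its 53700 gene IDs. Each symbol matched 1 ID, and all 33 passed the filter on low counts, the lowest value being 31 reads of Cpt1b in untreated mouse 7. The 9 libraries, 3 per group, came from wild-type females of the immunodeficient NSG strain, taken at week 12. Tumour Bearing mice carried orthotopic tumours of MDA-MB-231 cells, a human triple-negative breast cancer line. MDA-MB-231 EV mice had no tumour and received extracellular vesicles of these cells through the tail vein, 10 times in 5 weeks. The control mice are named untreated in the labels, while the study's text speaks of tumour-free and PBS-injected controls, so whether they were injected is not settled. Each library is named below by its group and mouse number, and p-values set differences between groups against the spread between these mice.

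Long-chain fatty acids are activated to acyl-CoA, carried into mitochondria by the carnitine shuttle and shortened in repeated rounds of dehydrogenation, hydration, a further dehydrogenation and thiolysis. The acetyl-CoA formed enters the TCA cycle at citrate synthase. White fat mainly stores lipid and has a modest oxidative capacity, whereas brown fat, heart and skeletal muscle are rich in these enzymes.

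The libraries held 20097743 to 26149300 estimated reads on genes. Levels are CPM, a gene's reads relative to the total of its library, scaled by the trimmed mean of M-values (TMM). The fat pads differed in what they contained. Adipoq, which encodes the fat cell hormone adiponectin, had 4350, 2969 and 3592 CPM in Tumour Bearing mice 17, 21 and 22, against 727, 4422 and 633 CPM in EV mice 36, 37 and 41 and 4381, 132 and 334 CPM in untreated mice 4, 7 and 10. All 12 fat cell markers listed together summed to 56590 to 65870 CPM in Tumour Bearing mice, 13620 to 56350 CPM in EV mice and 2938 to 82970 CPM in untreated mice. The 10 ovary markers summed to 4837 to 9673 CPM in EV mice 36 and 41 and untreated mouse 10 and to at most 74.3 CPM in the other libraries. The 6 smooth muscle markers summed to 13720 CPM in untreated mouse 7. The 10 skeletal muscle fibre markers summed to 2485 to 6423 CPM in Tumour Bearing mice, 10.5 to 65.2 CPM in EV mice and 11.3 to 393.5 CPM in untreated mice. The fibre actin gene Acta1 alone had 811, 1834 and 935 CPM in Tumour Bearing mice, 0.645, 59.7 and 2.38 CPM in EV mice and 5.44, 287 and 4.23 CPM in untreated mice. Acta1 thus made up most of the sums of EV mouse 37 and untreated mouse 7. In untreated mouse 7 Ckm had 88.7 CPM and Tnnt3 14.2 CPM, while Mb had 0.0691 CPM, Myh4 0.0346 CPM and Myh1 0 CPM. No marker on these lists was at 0 throughout a group.

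Of the 33 genes, 32 had a higher fitted level in Tumour Bearing than in untreated mice, with a median log2 difference of 0.72 over the 33 and of -0.12 over all 17876 genes tested. None of the 33 passed the test (edgeR quasi-likelihood, adjusted p from 0.418 to 0.861), where 0.218% of all genes did. At an unadjusted p under 0.05 there were 2 of 33, Cpt1b and Pdk4, a smaller share than the 11.9% of all genes. DESeq2 also called 0 of 33, where it called 4.28% of all genes. The groups did not overlap for 2 of the 33 genes, Cpt1b and Pdk4, both higher in Tumour Bearing mice, beside 5.64% of all genes. Acadvl joined them with library totals in place of TMM, making 3 of 33 beside 4.32% of all genes. In bulk tissue, fewer cells of a type and less RNA per cell cannot be told apart, and several marker lists differed between these libraries as well. All 10 muscle fibre markers and all 6 macrophage markers were higher in every Tumour Bearing mouse than in every untreated mouse (macrophage sums of 822.5 to 2186 CPM, against 275 to 673.5 CPM), as were 4 of 8 thermogenic fat markers, Cidea, Cox7a1, Cox8b and Ppargc1a (sums of 218 to 384 CPM, against 27.8 to 153 CPM). Of the 12 fat cell markers 0 were. The other 4 thermogenic fat markers, Ucp1, Elovl3, Dio2 and Prdm16, overlapped. Ucp1 had 7.84, 43.9 and 27.5 CPM in Tumour Bearing mice, against 23.2, 0.207 and 0.641 CPM in untreated mice. The part of all these marker lists in the result was not tested.

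**Figure D1:**
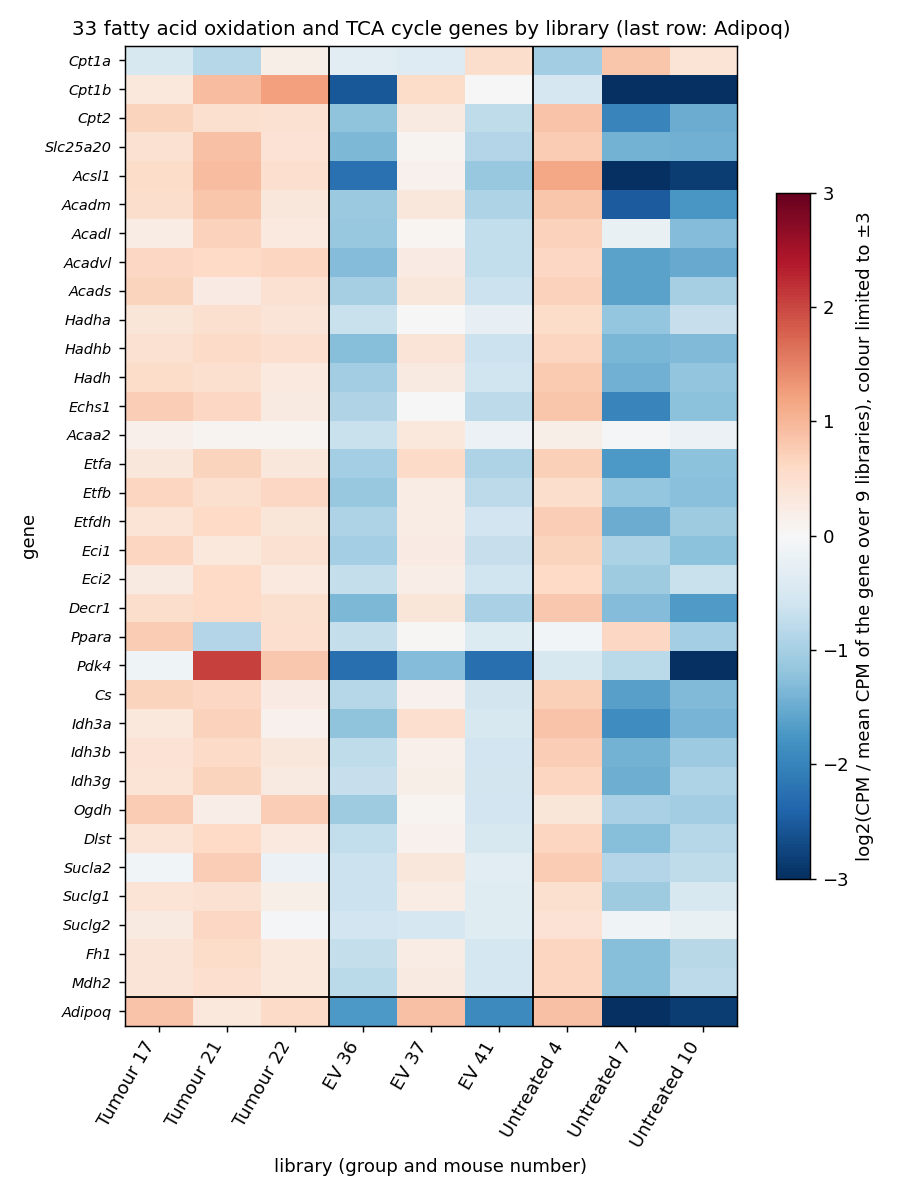
Levels of the 33 genes in the 9 libraries, as log2 of CPM over the gene's mean CPM across libraries, with Adipoq in the last row; columns are libraries in their groups, and colours stop at 3 on either side. Most rows are high in the 3 Tumour Bearing libraries, EV mouse 37 and untreated mouse 4 and low in the other 4 libraries.

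Acsl1, which activates long-chain fatty acids to acyl-CoA, had 3815, 4921 and 3675 CPM in Tumour Bearing mice, against 552, 2838 and 1185 CPM in EV mice and 5756, 239 and 358 CPM in untreated mice. It was highest in untreated mouse 4 and lowest in untreated mouse 7, so the control group alone spanned its full range of 24.1-fold. Its log2 difference was 0.97 ± 1.17 (SE) between Tumour Bearing and untreated mice. Cpt1b, the muscle and brown fat form of the enzyme that joins fatty acids to carnitine, had 22.3, 33.8 and 41.7 CPM in Tumour Bearing mice, against 3.05, 26.4 and 17.7 CPM in EV mice and 12.6, 1.07 and 2.11 CPM in untreated mice. All 3 Tumour Bearing values lay above every untreated value and overlapped those of the EV mice. The log2 difference of Cpt1b was 2.64 ± 1.02 between Tumour Bearing and untreated mice (edgeR unadjusted p = 0.0318, adjusted p = 0.418), 1.58 ± 0.99 between EV and untreated mice and 1.05 ± 0.97 between Tumour Bearing and EV mice.

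Cpt1a, the liver form of the same enzyme, ran the other way in the edgeR fit described above. It had 76.6, 59.1 and 120 CPM in Tumour Bearing mice, against 85.3, 81.9 and 156 CPM in EV mice and 52.0, 192 and 144 CPM in untreated mice. It was the only one of the 33 genes with a negative difference between Tumour Bearing and untreated mice, of -0.60 ± 0.50, and the groups overlapped. The log2 ratio of Cpt1b to Cpt1a was -1.78, -0.80 and -1.53 in Tumour Bearing mice, against -4.80, -1.63 and -3.14 in EV mice and -2.05, -7.46 and -6.08 in untreated mice. It averaged -1.37 ± 0.51 in Tumour Bearing mice and -5.19 ± 2.81 in untreated mice (SD, n = 3 each), a difference of 3.82 with an exact 2-sided permutation p of 0.1, the smallest that 3 against 3 can give (adjusted p = 0.45 over 6 ratio tests). The ratio was lowest in untreated mice 7 and 10, high in smooth muscle and ovary markers respectively, and was -2.05 in untreated mouse 4. It was highest in Tumour Bearing mouse 21, which also had the most Acta1. Cpt1b alone was highest in mouse 22, and mouse 21 had the lowest Cpt1a of the Tumour Bearing mice. The parts of muscle fibre, thermogenic fat, ovary and smooth muscle RNA in this ratio were not tested. Between EV and untreated mice the ratio differed by 2.003 (exact permutation p = 0.3), and between Tumour Bearing and EV mice by 1.82 (exact permutation p = 0.2), both with an adjusted p of 0.45. The other shuttle genes had the split of libraries seen for Acsl1. Cpt2, which returns the acyl group to CoA inside the mitochondrion, had 274.5 to 321 CPM in Tumour Bearing mice, 87.3 to 244 CPM in EV mice and 51.4 to 366 CPM in untreated mice. Slc25a20, the carnitine-acylcarnitine carrier of the inner membrane, had 109.5 to 149.6 CPM in Tumour Bearing mice, 32.1 to 86.5 CPM in EV mice and 30.0 to 137 CPM in untreated mice.

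The acyl-CoA dehydrogenases take the first step of each round and differ in the chain length they accept: Acadvl very long, Acadl long, Acadm medium and Acads short chains. Acadm had 765, 956 and 671 CPM in Tumour Bearing mice, against 247, 677 and 281 CPM in EV mice and 949, 94.1 and 160 CPM in untreated mice. Acadvl had 538, 525 and 545 CPM in Tumour Bearing mice, against 143, 411 and 208 CPM in EV mice and 533.5, 114 and 122.5 CPM in untreated mice. Its Tumour Bearing values spread by an SD of 9.99 CPM, while those of untreated mice spread by an SD of 239.8 CPM and reached the Tumour Bearing range in mouse 4. Scaled by library totals alone, every Tumour Bearing value of Acadvl lay above all untreated values. The 4 dehydrogenases had log2 differences of 0.48 (Acadl) to 1.06 (Acadvl, SE 0.65) between Tumour Bearing and untreated mice, of -0.46 to 0.0037 between EV and untreated mice and of 0.78 to 1.08 between Tumour Bearing and EV mice. Acadm is a textbook target of PPAR and estrogen-related receptors, and its promoter is printed to show the receptor hexamer AGGTCA, in capitals where it stands on the opposite strand, from base -249 relative to the start. The sequence is RefSeq's, from the minus strand of chr3:153944594-153944893 (GRCm38.p6), 250 bases before to 50 after the start.
Acadm: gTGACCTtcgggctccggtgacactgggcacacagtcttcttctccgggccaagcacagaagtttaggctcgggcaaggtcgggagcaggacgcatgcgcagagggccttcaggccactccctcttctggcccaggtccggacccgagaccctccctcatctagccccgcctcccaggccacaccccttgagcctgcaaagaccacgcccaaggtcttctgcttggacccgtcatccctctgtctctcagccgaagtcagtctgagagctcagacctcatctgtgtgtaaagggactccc
Of the 33 genes, 29 had an entry in the RefSeq promoter table. The PPAR direct repeat AGGTCANAGGTCA was searched on both strands with at most 1 mismatch and was in 0 of 29, against 0.64% of 27025 genes. The estrogen-related receptor element TCAAGGTCA, which contains the hexamer, was also in 0 of 29, against 0.47%. A looser search was added after these counts were seen, and other motifs were looked at as well. The repeat with at most 2 mismatches was in 5 of 29 (17.2%, against 4.40% of all genes): Echs1, Etfa, Idh3b, Slc25a20 and Sucla2. The hexamer alone was in 8 of 29 (27.6%, against 18.1%): Acadm, Acadvl, Cpt1a, Echs1, Fh1, Idh3g, Ogdh and Sucla2. These matches are descriptions of the letters in the window.

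The enzymes that complete each round were lowest in the same 4 libraries, EV mice 36 and 41 and untreated mice 7 and 10. Hadha and Hadhb, the subunits of the trifunctional protein for long chains, had 584 to 632 and 659 to 720 CPM in Tumour Bearing mice, against 287 to 446 and 199 to 637.5 CPM in EV mice and 201 to 663 and 187 to 758 CPM in untreated mice. Echs1, the short-chain enoyl-CoA hydratase, had 566, 519 and 408 CPM in Tumour Bearing mice, against 182, 343 and 197 CPM in EV mice and 604.5, 86.1 and 145.5 CPM in untreated mice. Hadh, the 3-hydroxyacyl-CoA dehydrogenase, had 447 to 533 CPM in Tumour Bearing mice, 175 to 435 CPM in EV mice and 134 to 627.5 CPM in untreated mice. Acaa2, the thiolase that releases acetyl-CoA, varied least of the 33 genes. It had 183, 173 and 175 CPM in Tumour Bearing mice, against 103.5, 204 and 145 CPM in EV mice and 186.5, 161 and 146 CPM in untreated mice, a range of 1.98-fold over the 9 libraries with overlapping groups. The log2 difference between Tumour Bearing and untreated mice was 0.11 ± 0.27 for Acaa2 and 0.66 to 0.86 for the other 4 genes of this step.

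The electron transfer flavoprotein, of subunits Etfa and Etfb, passes electrons from the dehydrogenases to Etfdh, which hands them to ubiquinone. Etfb had 421, 377 and 417 CPM in Tumour Bearing mice, against 123, 318 and 156 CPM in EV mice and 393, 121 and 114 CPM in untreated mice. Etfa had 379 to 477 CPM in Tumour Bearing mice, 149.8 to 447.5 CPM in EV mice and 91.3 to 499 CPM in untreated mice. Etfdh had 203 to 238.5 CPM in Tumour Bearing mice, 83.4 to 185 CPM in EV mice and 56.4 to 262 CPM in untreated mice. In all 3 genes untreated mouse 4 stood in or above the Tumour Bearing range. Eci1, Eci2 and Decr1, isomerases and a reductase that let unsaturated fatty acids enter the rounds, had log2 differences between Tumour Bearing and untreated mice of 0.72 ± 0.53, 0.59 ± 0.45 and 0.81 ± 0.70. Decr1 had 379, 398 and 365 CPM in Tumour Bearing mice, against 104, 336 and 134 CPM in EV mice and 463, 106.5 and 80.4 CPM in untreated mice. Eci1 had 129.5 to 162 CPM and Eci2 136 to 171 CPM in Tumour Bearing mice, against 51.2 to 124 and 68.4 to 129 CPM in EV mice and 44.7 to 166 and 54.0 to 170.5 CPM in untreated mice.

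Pdk4, the kinase that switches off pyruvate dehydrogenase and so spares glucose when fat is burnt, had the widest range of the 33 genes. It had 199.5, 890 and 380 CPM in Tumour Bearing mice, against 45.2, 87.3 and 45.2 CPM in EV mice and 155.5, 123 and 21.9 CPM in untreated mice. Every Tumour Bearing value lay above all 6 others, and the highest was in mouse 21, the library with the most Acta1. Its log2 difference was 2.29 ± 0.78 between Tumour Bearing and untreated mice (edgeR unadjusted p = 0.0186, adjusted p = 0.418) and 3.05 ± 0.81 between Tumour Bearing and EV mice (edgeR unadjusted p = 0.00512, adjusted p = 0.351). DESeq2 called the difference from EV mice, at 3.07 with an adjusted p of 0.00527, and gave an adjusted p of 0.0677 for that from untreated mice. Pdk4 is expressed in skeletal muscle too, and the part of muscle fibre RNA was not tested. Its promoter, from the minus strand of chr6:5496229-5496528 (RefSeq, GRCm38.p6), is printed beside that of Acadm because Pdk4 had the largest difference between Tumour Bearing and EV mice and the next largest, after Cpt1b, between Tumour Bearing and untreated mice; none of the motifs above was found in it.
Pdk4: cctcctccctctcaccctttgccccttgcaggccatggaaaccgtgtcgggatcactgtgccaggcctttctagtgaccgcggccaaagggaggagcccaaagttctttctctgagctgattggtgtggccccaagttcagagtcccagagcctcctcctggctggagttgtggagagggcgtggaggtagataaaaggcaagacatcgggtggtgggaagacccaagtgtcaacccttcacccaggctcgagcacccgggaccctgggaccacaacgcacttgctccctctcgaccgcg
Ppara, the nuclear receptor that drives fatty acid oxidation genes in liver, was low and unlike the enzymes. It had 32.7, 10.6 and 27.6 CPM in Tumour Bearing mice, against 11.9, 19.8 and 14.5 CPM in EV mice and 18.3, 29.7 and 9.51 CPM in untreated mice, with overlapping groups and a log2 difference of 0.30 ± 0.51 between Tumour Bearing and untreated mice.

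**Figure D2:**
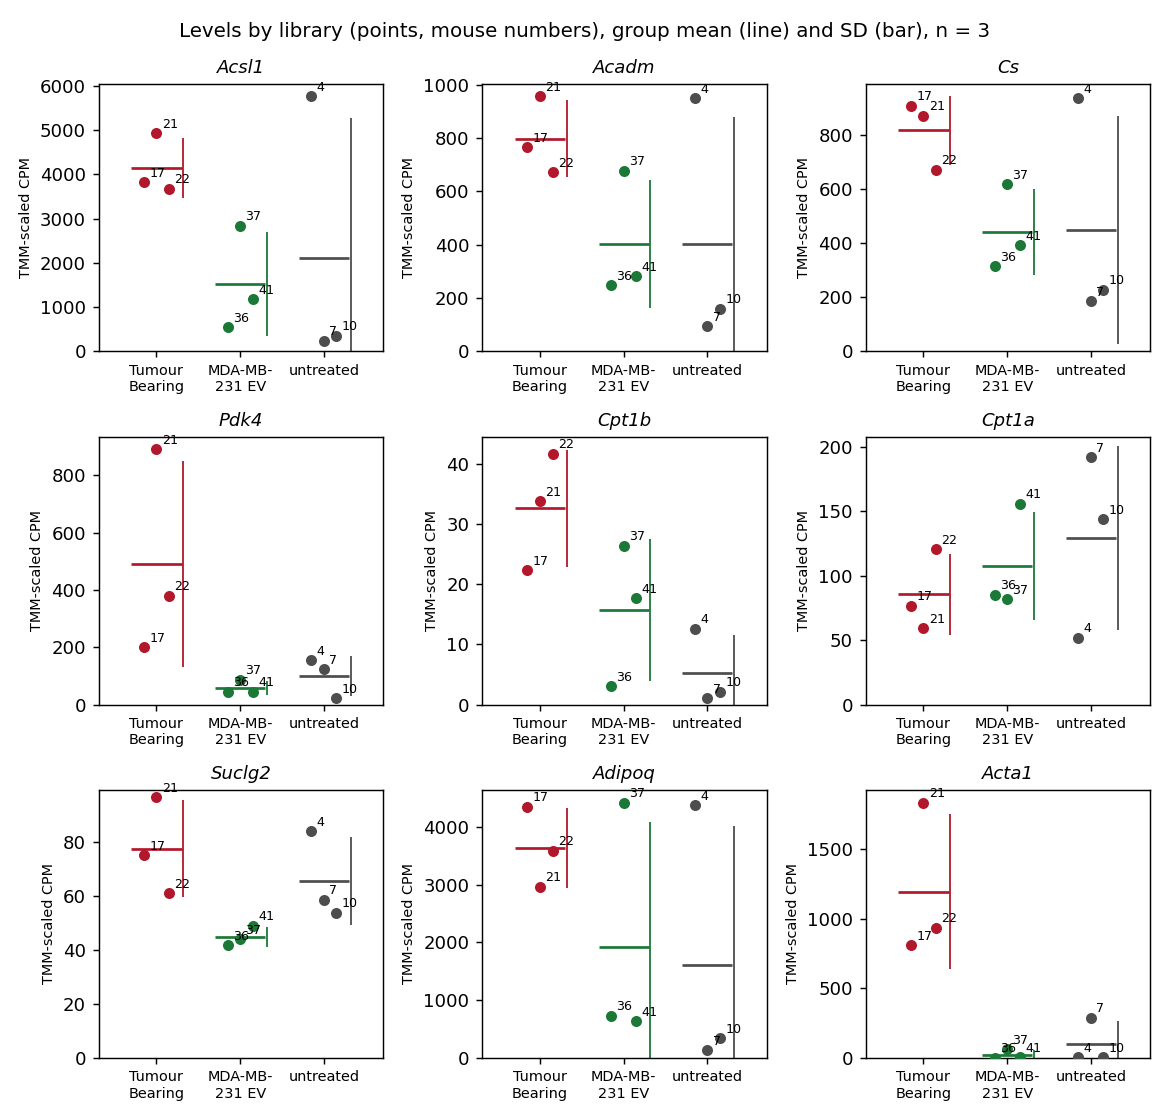
TMM-scaled CPM of 7 of the genes and of Adipoq and Acta1 in each library (points with mouse numbers), with the group mean (horizontal line) and SD (vertical bar, stopped at 0); n = 3 mice per group. Pdk4 in the 3 Tumour Bearing mice (199.5 to 890 CPM) lies above all other libraries, while Acsl1, Acadm and Cs in untreated mouse 4 reach the Tumour Bearing values.

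All 11 TCA cycle genes had positive differences between Tumour Bearing and untreated mice, of 0.24 to 0.97 on the log2 scale with a median of 0.68. Cs, the citrate synthase that opens the cycle, had 906, 869 and 670 CPM in Tumour Bearing mice, against 314, 618 and 391 CPM in EV mice and 935, 185 and 227 CPM in untreated mice. Ogdh, of the 2-oxoglutarate dehydrogenase complex, had 699, 475 and 693 CPM in Tumour Bearing mice, against 199, 441.5 and 278 CPM in EV mice and 538, 213 and 203 CPM in untreated mice. Its difference was the largest of the 11, at 0.97 ± 0.48 (edgeR unadjusted p = 0.0750, adjusted p = 0.433). Dlst, the succinyl transferase of the same complex, differed by 0.68 ± 0.50. Idh3a, Idh3b and Idh3g, the subunits of the NAD-dependent isocitrate dehydrogenase, differed by 0.69 ± 0.73, 0.71 ± 0.56 and 0.76 ± 0.53. Fh1, the fumarase, and Mdh2, the mitochondrial malate dehydrogenase, differed by 0.66 ± 0.50 and 0.63 ± 0.52. Among these 6 genes the Tumour Bearing values ran from 225 CPM (Fh1) to 521 CPM (Mdh2), with untreated mouse 4 at 285 to 577 CPM and untreated mice 7 and 10 at 59.8 to 214.5 CPM.

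Succinyl-CoA ligase pairs a common subunit, Suclg1, with a subunit that makes ATP (Sucla2) or GTP (Suclg2). Suclg2 stood apart from the rest of the cycle in EV mice. It had 75.1, 96.6 and 61.1 CPM in Tumour Bearing mice, against 41.8, 43.9 and 49.0 CPM in EV mice and 84.1, 58.7 and 53.8 CPM in untreated mice. With TMM the EV values thus lay below all 6 others. Scaled by library totals alone, they lay below all untreated values but overlapped those of Tumour Bearing mice. The log2 difference of Suclg2 was 0.79 ± 0.25 between Tumour Bearing and EV mice (edgeR unadjusted p = 0.0118, adjusted p = 0.351) and -0.54 ± 0.25 between EV and untreated mice (edgeR unadjusted p = 0.0557, adjusted p = 1). Sucla2 had 135, 240 and 126.5 CPM in Tumour Bearing mice, against 91.3, 182 and 113 CPM in EV mice and 243, 77.9 and 84.6 CPM in untreated mice. Suclg1 had 176 to 214 CPM in Tumour Bearing mice, 99.4 to 184 CPM in EV mice and 74.7 to 220.0 CPM in untreated mice. The log2 ratio of Suclg2 to Sucla2 averaged -1.07 ± 0.23 in Tumour Bearing mice, -1.46 ± 0.51 in EV mice and -0.86 ± 0.59 in untreated mice (SD, n = 3 each). Its differences of -0.21 (Tumour Bearing minus untreated), -0.60 (EV minus untreated) and 0.39 (Tumour Bearing minus EV) had exact permutation p-values of 0.7, 0.3 and 0.4, with adjusted p from 0.45 to 0.7.

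The levels of most of the 33 genes split the libraries as Adipoq did. As a share of each gene's mean over the libraries, the median over the 33 genes was 133%, 151% and 126% in Tumour Bearing mice 17, 21 and 22, 49.9%, 117% and 66.8% in EV mice 36, 37 and 41 and 157%, 40.5% and 44.3% in untreated mice 4, 7 and 10. For 28 of the 33 genes the 5 libraries with the highest level were the 5 with the most Adipoq, which held for 15.95% of all genes tested; the exceptions were Cpt1a, Cpt1b, Ppara, Pdk4 and Suclg2. This count was made after the levels were seen and is a description. Among these 5 libraries the order was not that of Adipoq, since EV mouse 37 had the most Adipoq and the lowest median (117%) and Tumour Bearing mouse 21 the least Adipoq and a median of 151%. The 12 fat cell markers together ran in the order of the medians, from 56350 CPM in EV mouse 37 to 82970 CPM in untreated mouse 4. Untreated mouse 4 was above the Tumour Bearing range in 20 of the 33 genes, within it in 10 and below it in 3 (Cpt1a, Cpt1b and Pdk4). Untreated mice 7 and 10 were both below it in 31. The 33 genes spanned a median of 4.42-fold between their highest and lowest library, against 33.6-fold for Adipoq.

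**Figure D3:**
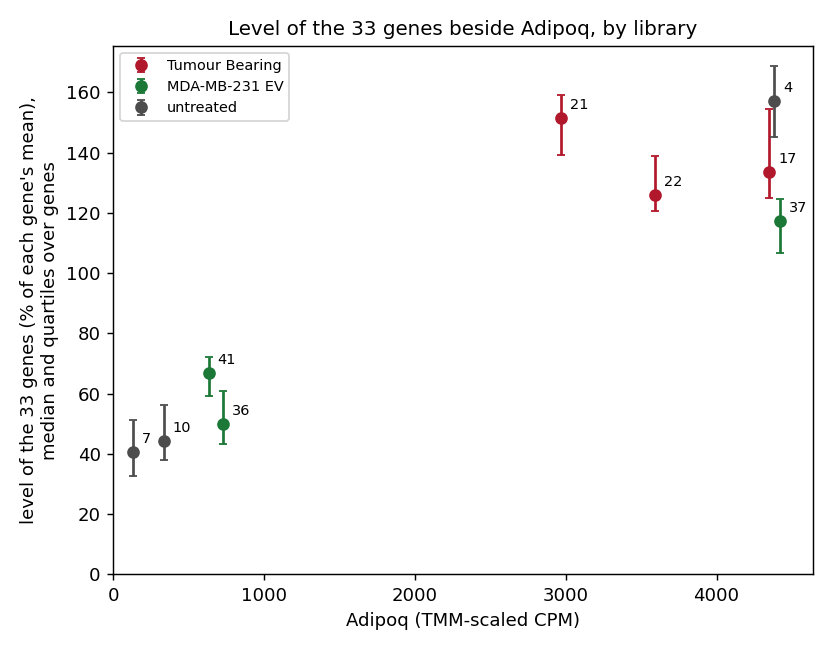
Level of the 33 genes in each library (median and quartiles over genes, as % of each gene's mean) against Adipoq in the same library (TMM-scaled CPM), coloured by group and labelled with mouse numbers. Libraries with 2969 CPM of Adipoq or more had medians of 117% to 157%, and those with at most 727 CPM had 40.5% to 66.8%.

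The difference between Tumour Bearing and untreated mice changed with the libraries compared. Without the 4 libraries high in ovary or smooth muscle transcripts (untreated mice 7 and 10 and EV mice 36 and 41), 26 of the 33 differences were negative and their median was -0.20 on the log2 scale, with 0 of 33 called by edgeR and with untreated mouse 4 and EV mouse 37 alone in their groups, assumed to vary like the Tumour Bearing mice. Without untreated mouse 4 the median was 1.72, with 0 of 33 called and 29 at an unadjusted p under 0.05, beside 29.0% of all genes in that fit. With the log2 CPM of Adipoq as a covariate the median was 0.017, with 17 differences positive and 16 negative. Pdk4 and Cpt1b had positive, uncalled differences of 1.66 and 1.37 without the 4 libraries and of 1.92 and 1.79 with Adipoq as a covariate.

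**Figure D4:**
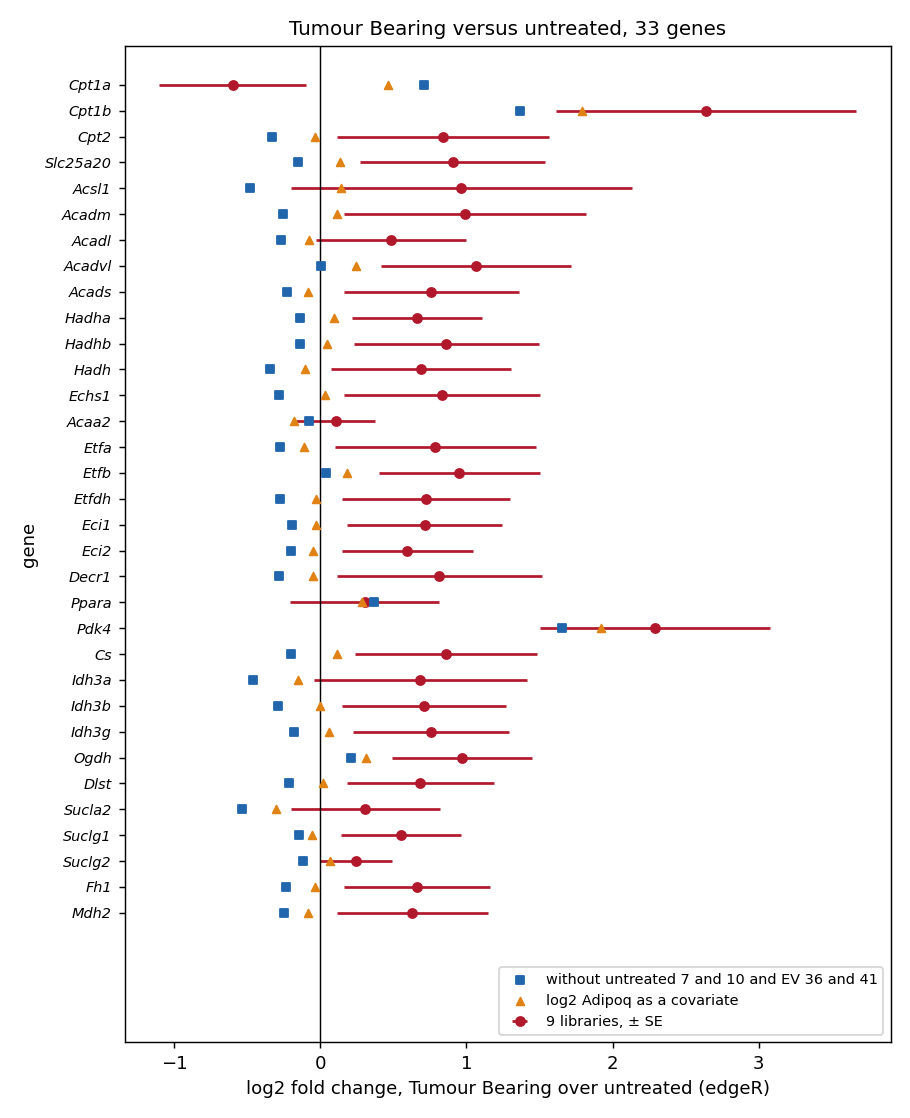
Log2 fold change of each of the 33 genes between Tumour Bearing and untreated mice in the fit of 9 libraries (circles, ± SE), without the 4 libraries named in the legend (squares) and with log2 Adipoq as a covariate (triangles). The circles have a median of 0.72, the squares of -0.20 and the triangles of 0.017, and Pdk4 and Cpt1b stay at 1.37 or above in each.

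Mice that received vesicles and bore no tumour were set against the control mice. None of the 33 genes passed the test between EV and untreated mice (edgeR, adjusted p = 1 for each), where 0.00559% of all genes did, and 0 of 33 had an unadjusted p under 0.05 in edgeR (1.19% of all genes did) or were called by DESeq2 (0.0533% of all genes were). The median log2 difference was -0.07 over the 33 genes and -0.0015 over all genes, with 5 positive and 28 negative. With library totals in place of TMM, 25 were positive and 8 negative and the median was 0.17, against 0.12 over all genes. No gene of the 33 was higher in every EV mouse than in every untreated mouse (1.56% of all genes were), and Suclg2 alone was lower (1.32% of all genes were). Both groups held libraries rich and poor in fat cell markers, and the median moved either way with the libraries and terms of the fit. It was 0.84 without untreated mouse 4 and -0.43 without the 4 libraries named above (29 of 33 negative). It was -0.28 with Adipoq as a covariate (31 negative). With batches inferred from the deposited columns named TPM as a term it was -0.40 (30 negative). Untreated mouse 7 was a batch by itself, so that difference rested on untreated mice 4 and 10. By edgeR 0 of 33 were called without untreated mouse 4, with the batches or with Adipoq.

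Tumour Bearing and EV mice differed by a median of 0.80 on the log2 scale over the 33 genes and of -0.06 over all genes, with 32 differences positive. By edgeR 0 of 33 passed (adjusted p from 0.351 to 0.731), where 0.257% of all genes did, and 2 had an unadjusted p under 0.05, Pdk4 and Suclg2, a smaller share than the 14.1% of all genes. DESeq2 called 1 of 33, Pdk4, where it called 4.45% of all genes. The Tumour Bearing values lay above all EV values in 23 of the 33 genes, beside 11.7% of all genes. With library totals in place of TMM, a scaling applied to this count after it was seen, this held for 13 of the 33 and 4.06% of all genes. Suclg2 was not among the 13. EV mouse 37 was below the Tumour Bearing range in 23 genes and within or above it in 10. Its Adipoq (4422 CPM) was above all 3 Tumour Bearing values. Its 12 fat cell markers together summed to 56350 CPM, below the 56590 to 65870 CPM of Tumour Bearing mice. Without EV mice 36 and 41 and untreated mice 7 and 10 the median difference was 0.25, against 0.034 over all genes, with 29 positive and 4 negative. EV mouse 37 and untreated mouse 4 were then alone in their groups. With log2 Adipoq as a covariate the median was 0.27, against -0.0043 over all genes, with 31 positive and 2 negative. All 10 skeletal muscle fibre markers were higher in every Tumour Bearing mouse than in every EV mouse (sums of 2485 to 6423 CPM, against 10.5 to 65.2 CPM). Of the 12 fat cell markers 4 were, Pnpla2, Retn, Cfd and Lpl, and the other 8 overlapped. Of the 8 thermogenic fat markers 3 were, Elovl3, Cox8b and Ppargc1a, and of the 6 macrophage markers 0. The remaining thermogenic fat markers overlapped, and Ucp1 was highest in EV mouse 41, at 136 CPM. The part of these markers in the result was not tested.

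Other genes of the same pathways gave no calls by edgeR in any comparison. Of 14 further TCA cycle and pyruvate dehydrogenase genes, 14 had positive differences between Tumour Bearing and untreated mice, with a median of 0.63, led by Idh2, the NADP-dependent isocitrate dehydrogenase (0.66 ± 0.38), and Sdhb, a succinate dehydrogenase subunit (0.91 ± 0.57). Of 15 further fatty acid oxidation genes outside the peroxisomal list 12 were positive, and the smallest p-values belonged to a pair with negative differences, Crot, the carnitine octanoyltransferase, which itself acts in peroxisomes (-0.39 ± 0.18), and Acsl3, an acyl-CoA synthetase (-1.02 ± 0.55). Of 11 genes on the peroxisomal list 9 were positive, and Decr2, a peroxisomal reductase with a negative difference (-0.998 ± 0.58), had the smallest p-value. Of 16 regulators 11 were positive, with Ppargc1a, the coactivator of mitochondrial biogenesis, at 1.96 ± 0.63 (edgeR unadjusted p = 0.0132, adjusted p = 0.418) and Pdk3, another pyruvate dehydrogenase kinase, at -0.79 ± 0.32 (adjusted p = 0.418). Between Tumour Bearing and EV mice the smallest p-values were those of Ppargc1b (2.004 ± 0.56) and Ppargc1a (1.97 ± 0.63) among regulators, which DESeq2 called at adjusted p-values of 0.0171 and 0.0449. Both were highest in Tumour Bearing mouse 21, the library with the most Acta1. Ppargc1a had 8.85, 23.75 and 5.67 CPM in Tumour Bearing mice 17, 21 and 22, and Ppargc1b 9.86, 13.15 and 8.35 CPM. The part of muscle fibre RNA was not tested. In the other lists the smallest p-values were those of Sdha (0.95 ± 0.55) and Sdhc (0.79 ± 0.46), succinate dehydrogenase subunits, of Acot2, a mitochondrial thioesterase (1.05 ± 0.45), and Acsl6, an acyl-CoA synthetase (3.25 ± 1.45), and of Ehhadh, an enzyme of peroxisomal oxidation (1.80 ± 0.77). Acsl6 was near 0 throughout, with 0.728, 1.97 and 1.27 CPM in Tumour Bearing mice and 0.358, 0 and 0.0378 CPM in EV mice. Between EV and untreated mice the genes with the smallest p-values were Idh2 (0.65 ± 0.38), Pdha1 (-0.43 ± 0.67), Acsl5 (-0.38 ± 0.35), Crot (-0.18 ± 0.18), Decr2 (-1.27 ± 0.59), Abcd3 (-0.80 ± 0.42), Ppargc1b (-0.80 ± 0.54) and Pdk1 (-0.67 ± 0.46), each at an adjusted p of 1 in edgeR.

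Levels were also expressed as CPM per kilobase of merged exons, which pool the annotated exons of all transcripts of a gene. These lengths ran from 1.16 kb for Etfb to 10.48 kb for Acsl1, with 8.29 kb for Echs1. They can exceed a single transcript, so the ranks depend on them. On this scale the highest median levels over the 9 libraries were those of Etfb (273), Acsl1 (271) and Etfa (207). The lowest were those of Ppara (4.76), Cpt1b (5.25) and Cpt1a (11.2). The rank of Acsl1 among the 33 genes ran between 1 and 19 over the libraries and that of Pdk4 between 4 and 30, so their places at the top and in the middle depended on the mouse. Etfb stayed among the first 3 in every library.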

How the data were processed

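RNA of eWAT from 9 mice was sequenced. In the methods of the study, read trimming was by SeqPrep and Sickle, alignment by HISAT2, assembly by StringTie and quantification by RSEM, whereas Bowtie 0.12.2, mm8 and mm9 stand in the submitters' processing notes. For the annotation used, nothing is given in the sources used here. The deposited expected counts, estimated reads per gene, were rounded to whole numbers. The deposited columns named TPM served as a score, in an alternative only, since their totals were 0.697 to 1.28 times that of a true TPM and each library had values above 1 in 75 to 635 genes with no reads. Among the 14954 genes positive in every column, 99.9% satisfied (relative tolerance 0.0001) the linear relation that remains once 3 batches are regressed out with the group entered as a number. The batches were untreated mouse 7, Tumour Bearing mice 17 and 22, and the other 6 libraries. As a term in the fit they left untreated mouse 7 fitted by itself. Tumour Bearing mouse 21 alone then set the level of its group against the other groups. This relation was worked out from the columns themselves, and the best of 251 other assignments satisfied it in 5.25% of genes.

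Gene IDs were matched to symbols for 52093 of 53700 IDs. Genes passing filterByExpr (17876) were fitted in R 4.3.3 with edgeR 4.0.16 (quasi-likelihood test, TMM factors 0.756 to 1.32, group as the term over 9 libraries, Benjamini-Hochberg over all genes, called at adjusted p under 0.05); the biological coefficient of variation was 62.8%. The SE is the fold change over the square root of F. Ratios had 0.5 added to each count and exact permutation tests. Alternatives were RLE or no scaling, DESeq2 1.42.0, limma 3.58.1 on log2(score + 1), other filters, the 2 groups only, leaving out libraries, the inferred batches and Adipoq as a covariate. The fit was tested on simulated data: for Tumour Bearing versus untreated it called 18 of 100 genes given a 4-fold change, 85 of 100 given a 32-fold change and 2 unchanged genes. The members and lists were chosen with earlier results of these data known. All 33 members are named, and of other pathway genes those called, or else the 2 with the smallest p per list and comparison; some of these are not reported here. The Adipoq order, relative levels, levels per kilobase and looser motif searches were added after the levels were seen. Promoters are RefSeq's (GRCm38.p6); merged exon lengths are from GENCODE.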

Additional observations from a re-analysis of the deposited data

How the results depend on the processing

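No paired analysis was possible because no mouse number occurs in more than 1 group. The number of the 33 genes called was 0 in each comparison under every alternative run, except Tumour Bearing versus EV mice under DESeq2, where Pdk4 was called (1 gene, beside 860 of 19330 genes with an adjusted p). The median log2 difference between Tumour Bearing and untreated mice ranged from 0.41 to 1.72 when 1 library at a time was left out and was -0.20 without the 4 libraries high in ovary or smooth muscle transcripts; that between EV and untreated mice ranged from -0.52 to 0.84. The log2 ratio of Suclg2 to Sucla2 between Tumour Bearing and untreated mice ranged from -0.54 to 0.021. Precision is limited by 3 mice per group that differ in fat pad content, and the cause of the changes below was not tested. They are log2 differences, uncalled in either fit, whose sign changed: 57 of 779 values of single genes between Tumour Bearing and untreated mice, 134 of 779 between EV and untreated mice and 12 of 778 between Tumour Bearing and EV mice.

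Between Tumour Bearing and untreated mice, the values without the 4 libraries were 0.71 for Cpt1a, -0.33 for Cpt2, -0.15 for Slc25a20, -0.48 for Acsl1, -0.25 for Acadm, -0.26 for Acadl, -0.23 for Acads, -0.14 for Hadha, -0.14 for Hadhb, -0.34 for Hadh, -0.28 for Echs1, -0.076 for Acaa2, -0.27 for Etfa, -0.28 for Etfdh, -0.20 for Eci1, -0.20 for Eci2, -0.28 for Decr1, -0.20 for Cs, -0.46 for Idh3a, -0.29 for Idh3b, -0.18 for Idh3g, -0.22 for Dlst, -0.54 for Sucla2, -0.15 for Suclg1, -0.12 for Suclg2, -0.23 for Fh1, -0.25 for Mdh2, -0.062 for Sdhb, 0.55 for Acsl3. With Adipoq as a covariate they were 0.46 for Cpt1a, -0.034 for Cpt2, -0.074 for Acadl, -0.084 for Acads, -0.10 for Hadh, -0.18 for Acaa2, -0.11 for Etfa, -0.028 for Etfdh, -0.025 for Eci1, -0.052 for Eci2, -0.047 for Decr1, -0.15 for Idh3a, -0.0038 for Idh3b, -0.30 for Sucla2, -0.055 for Suclg1, -0.033 for Fh1, -0.086 for Mdh2, 0.43 for Acsl3. On the columns named TPM, limma gave 0.15 for Cpt1a, 0.33 for Acsl3, 0.32 for Decr2, 0.077 for Pdk3. With no scaling factors the values were -0.18 for Acaa2, -0.026 for Suclg2, and with the inferred batches -0.39 for Ppara. Under that batch term Tumour Bearing mouse 21 alone stood against untreated mice 4 and 10. Leaving out 1 library at a time gave ranges of -0.018 to 0.77 for Ppara, -0.042 to 1.05 for Sucla2, -1.42 to 0.082 for Decr2.

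Between EV and untreated mice, the values with no scaling factors were 0.19 for Cpt2, 0.26 for Acadvl, 0.22 for Acads, 0.20 for Hadha, 0.15 for Hadh, 0.10 for Echs1, 0.16 for Etfb, 0.19 for Etfdh, 0.10 for Eci1, 0.091 for Eci2, 0.10 for Decr1, 0.27 for Cs, 0.20 for Idh3b, 0.25 for Idh3g, 0.15 for Ogdh, 0.17 for Dlst, 0.16 for Sucla2, 0.17 for Suclg1, 0.19 for Fh1, 0.17 for Mdh2. Without the 4 libraries they were 0.66 for Cpt1a, -0.48 for Acadm, -0.25 for Hadhb, 0.14 for Acaa2, -0.15 for Etfa, 0.12 for Ppara, -0.35 for Idh3a, 0.27 for Acsl5, 0.0027 for Crot. With Adipoq as a covariate they were 0.28 for Cpt1a, -0.11 for Acadm, -0.30 for Hadhb, -0.28 for Etfa, -0.14 for Idh3a, with the inferred batches 0.14 for Cpt1a, -0.46 for Acadm, -0.32 for Hadhb, -0.31 for Etfa, 0.15 for Ppara, -0.35 for Idh3a, 0.029 for Acsl5, and by limma on the columns named TPM 0.27 for Cpt1a, 1.21 for Acsl1, -0.16 for Hadhb, -0.15 for Etfa, 0.089 for Ppara, 0.015 for Cs, -0.039 for Idh3a. RLE factors gave -0.027 for Acadm, -0.022 for Hadhb, DESeq2 -0.026 for Acadm, -0.021 for Hadhb, no filter -0.012 for Acadm, -0.0066 for Hadhb, and the 2 groups alone -0.027 for Acadm, -0.021 for Hadhb. Leaving out 1 library at a time gave ranges of -0.64 to 0.14 for Cpt1a, -0.66 to 1.29 for Cpt2, -0.79 to 0.84 for Slc25a20, -1.29 to 2.35 for Acsl1, -0.61 to 1.67 for Acadm, -0.87 to 0.14 for Acadl, -0.55 to 1.11 for Acadvl, -0.52 to 0.96 for Acads, -0.34 to 0.63 for Hadha, -0.58 to 1.01 for Hadhb, -0.57 to 0.95 for Hadh, -0.64 to 1.06 for Echs1, -0.41 to 0.086 for Acaa2, -0.63 to 1.20 for Etfa, -0.59 to 0.76 for Etfb, -0.48 to 0.92 for Etfdh, -0.61 to 0.69 for Eci1, -0.46 to 0.54 for Eci2, -0.87 to 1.04 for Decr1, -0.64 to 0.15 for Ppara, -0.40 to 1.10 for Cs, -0.51 to 1.40 for Idh3a, -0.43 to 0.91 for Idh3b, -0.36 to 0.87 for Idh3g, -0.42 to 0.56 for Ogdh, -0.40 to 0.74 for Dlst, -0.40 to 0.67 for Sucla2, -0.30 to 0.53 for Suclg1, -0.38 to 0.76 for Fh1, -0.44 to 0.72 for Mdh2, -0.81 to 0.70 for Pdha1, -0.70 to 0.029 for Acsl5, -1.05 to 0.042 for Pdk1.

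Between Tumour Bearing and EV mice, the values without the 4 libraries were 0.053 for Cpt1a, -0.21 for Acaa2, -0.12 for Etfa, -0.11 for Idh3a, -0.13 for Sucla2. With Adipoq as a covariate they were 0.18 for Cpt1a, -0.0096 for Idh3a, -0.024 for Sucla2, with no scaling factors -0.15 for Acaa2, -0.024 for Sucla2, and with the inferred batches -0.54 for Ppara. Here too the batch term left Tumour Bearing mouse 21 alone for its group. Leaving out 1 library at a time gave a range of -0.64 to 0.032 for Cpt1a.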
